A study of Mus musculus with 7 samples.

Results

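The enzymes that start every ubiquitin reaction are the E1 activating and E2 conjugating enzymes. Their genes were followed here in muscle cells sorted by the satellite cell reporter Pax7-GFP, from mice kept in normal or in high CO2. Macrophage transcripts were also read in each library of these cells. Members were taken by name, as every gene of the deposited table whose symbol begins with Uba and a digit or with Ube2, which gave 37 of 23930 genes. Of these, 7 are E1 genes, 27 are E2 genes and 3 carry the name without being an E2. The rule itself uses names alone. The mice were Pax7-GFP inducible reporter animals, littermates on a C57/B6 background (the labels write the genotype as Inducible Pax7-GFP C57BL/6, with a strain number that goes up by 1 with each sample). All received tamoxifen at 12 weeks of age, spent 4 weeks in normocapnia (NC, 3 libraries) or hypercapnia (HC, 4 libraries) and were 16 weeks old at collection. The study's methods give room air for the first group and a chamber at 10% CO2 for the second, and place cardiotoxin injection of the hind leg muscles 3 days before the cells were sorted. The labels name no injury, and the title of the deposited table gives a time in hours that the paper uses only for cultured cells, so the state of the cells rests on the paper. Cre recombinase sits at the Pax7 locus in these mice, Pax7 being the transcription factor of satellite cells, and descendants of a labeled cell keep their GFP.

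Ubiquitin is first activated by an E1 at the cost of ATP, then passed to the catalytic cysteine of an E2, and finally joined to a protein with the help of an E3 ligase. Cells hold few E1 enzymes, more E2 enzymes and very many ligases, and the E2 largely decides which chain is built. Ubiquitin-like proteins such as SUMO, NEDD8 and ISG15 each use an E1 and an E2 of their own, and in muscle ubiquitination serves both protein breakdown in wasting fibers and the cell cycle of dividing myoblasts.

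Each library was made with an AmpliSeq panel, in which 1 short stretch per gene is copied by PCR and counted, and held between 14527445 and 23388710 reads. Values are RPM, reads scaled to a common total of panel reads, so that 1 read stood for 0.0428 to 0.0688 RPM. Since amplification differs between stretches, levels of different genes are not ranked here. Where a gene is given with a value for every library, normocapnia values follow the order NC1, NC2, NC3 and hypercapnia values the order HC1, HC2, HC3, HC4. The sorted cells were not satellite cells alone by their markers. Pax7 ran from 4.34 RPM in NC3 to 268 RPM in NC1, and the 10 satellite cell markers summed to 604 to 3463 RPM in normocapnia and 779 to 1552 RPM in hypercapnia. The 12 macrophage markers summed to 12471 RPM in NC1, 24095 RPM in NC2 and 35712 RPM in NC3, and to 20364 to 25345 RPM in hypercapnia, with C1qa at or under 0.452 RPM in each library. Without Lyz2 the sums were 4117, 10782 and 6604 RPM in normocapnia and 5913 to 8617 RPM in hypercapnia. Sums of the other lists overlapped between the groups as well: 82.1 to 227 against 105 to 329 RPM for neutrophils, whose marker Ly6g stayed under 3 reads in each library, 16.1 to 23.9 against 21.7 to 25.5 RPM for lymphocytes, 88.0 to 218 against 44.7 to 498 RPM for endothelial cells, 1356 to 2203 against 1276 to 3124 RPM for fibro-adipogenic cells and 134 to 2897 against 276 to 1599 RPM for myofibers. Red blood cells had 1 of 5 listed markers in the table, at 0.214 to 15.4 against 0.201 to 5.12 RPM. The normocapnia libraries were unlike each other: satellite cell markers summed to 3463 RPM in NC1 against 1000.4 RPM in NC2 and 604 RPM in NC3, and proliferation genes to 1145, 118 and 125 RPM. Of the 12 macrophage markers 11 were lower in NC1 than in NC2, and 9 were lower in NC3 than in NC2. Deviations from the group means, over the 8229 genes at 10 RPM or more, correlated positively between NC1 and both HC3 and HC4 (0.39 each) and between NC2 and both HC1 (0.44) and HC2 (0.51), and negatively in the reverse pairs (-0.38 to -0.52), while those of NC3 ran from -0.062 to 0.028.

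Uba7, which activates the ubiquitin-like protein ISG15, was the enzyme gene called higher in hypercapnia, at 36.1 RPM against 17.4 RPM, and no gene of an E1 or E2 enzyme was called lower by limma. For most of the others the groups overlapped, and the normocapnia libraries had the wider spread. Of the 37 genes, 26 had a mean of at least 10 RPM over all libraries, 4 lay between 1 and 10 RPM and 7 lay under 1 RPM, 3 of which had no read in any library. A total of 30 genes had at least 3 reads in every library. The mean log2(RPM + 1) was higher in hypercapnia for 21 genes and lower for 13, beside 12843 higher and 8644 lower of all genes. The median log2 fold change was 0.05 beside 0.02 for all genes of the table, and 0.18 beside 0.13 at 10 RPM or more. The split of the members was 18 to 16 with median-of-ratios scaling and 17 to 17 with quantile normalization. The balance turned in DESeq2 and in edgeR without a filter, to 16 higher and 18 lower in each, in edgeR with its filter, to 15 and 16, and without NC3, to 13 and 21. Limma called Uba7 higher and the pseudogene Ube2d-ps lower at an unadjusted p under 0.05 with a fold change above 1.5. Over all genes 1.43% were called higher and 1.14% lower, 2.57% in all, and 2 called genes among 37 exceed these shares by about 1 gene. At 10 RPM or more the call of Uba7 was 1 of 26 genes, where 5.54% of all genes at that level were called. On whole reads edgeR called 3 of the 31 members that passed its filter (6.03% of genes) and 3 of 37 without a filter (4.38%), and DESeq2 called 5 of 37 (5.45%). Ube2u also had an unadjusted p under 0.05, with a fold under the limit, which makes 3 of 37 genes at this p beside 4.66% of all genes. No member passed 0.05 once p was adjusted by Benjamini-Hochberg, that is 0 of 37 in limma (lowest adjusted p 0.836), in edgeR and in DESeq2. Over all genes 0 passed in limma and in edgeR, and 29 in DESeq2. Among the 26 genes at 10 RPM or more the groups did not overlap in 1, Uba7, where 9.62% of the 8229 genes at that level did not overlap.

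**Figure D1:**
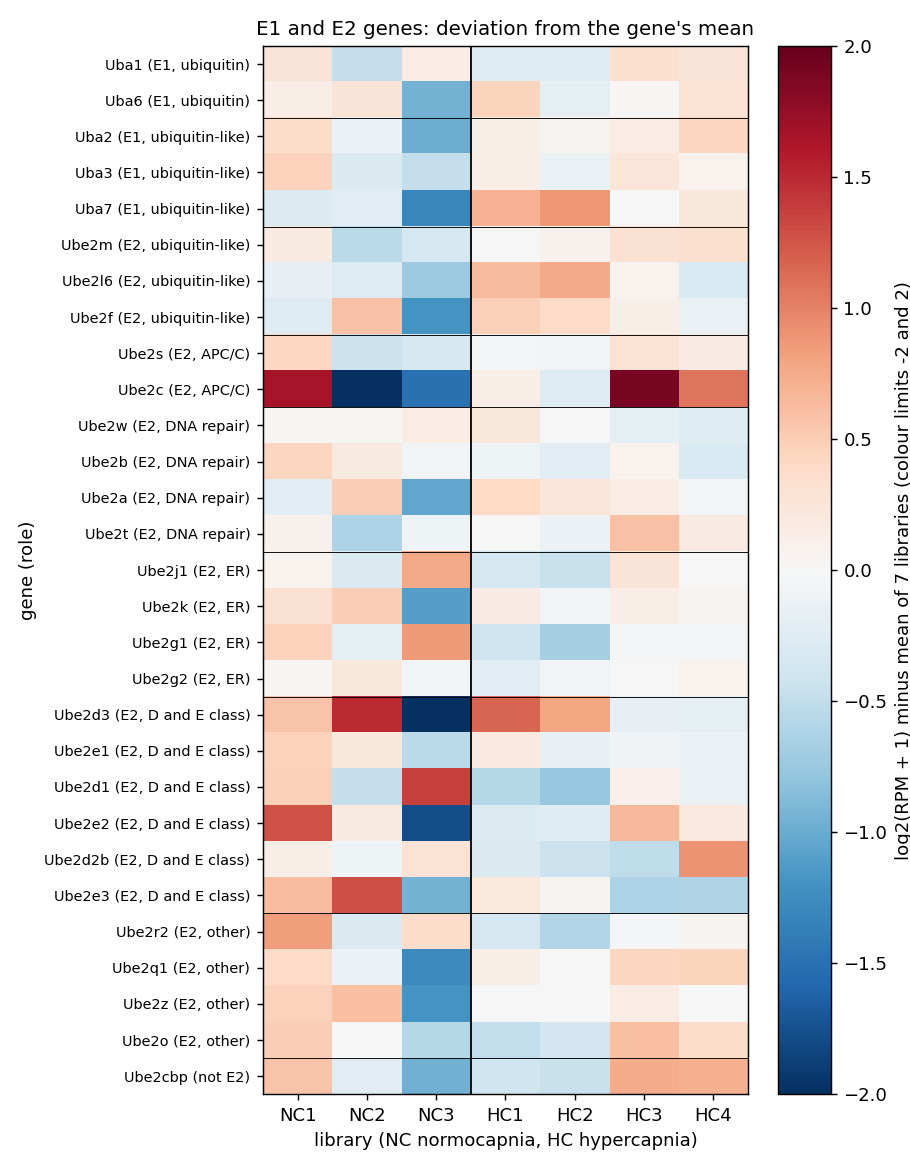
Each cell gives log2(RPM + 1) in 1 library minus the mean of the 7 libraries, for 29 E1 and E2 genes (including Ube2cbp) averaging 1 RPM or more, ordered by role, with normocapnia left and hypercapnia right of the vertical line. NC3 is often the bluest or reddest cell of its line, and Uba7 is below its mean in all 3 normocapnia libraries.

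The normocapnia libraries set most of the extremes. For the 26 genes at 10 RPM or more, NC3 held the lowest value of 13 and the highest of 4, 65.4% together, close to the 69.2% it held of all 8229 genes at this level. The median SD of log2(RPM + 1) over the 26 genes was 0.55 in normocapnia and 0.25 in hypercapnia, and it was larger in normocapnia for 23 of them (88.5%, beside 88.6% of all genes at this level). The wide spread was thus shared with the table as a whole. What part the differing macrophage and satellite cell transcripts have in it was not tested. In bulk libraries fewer cells of a type and less RNA per cell cannot be told apart.

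**Figure D2:**
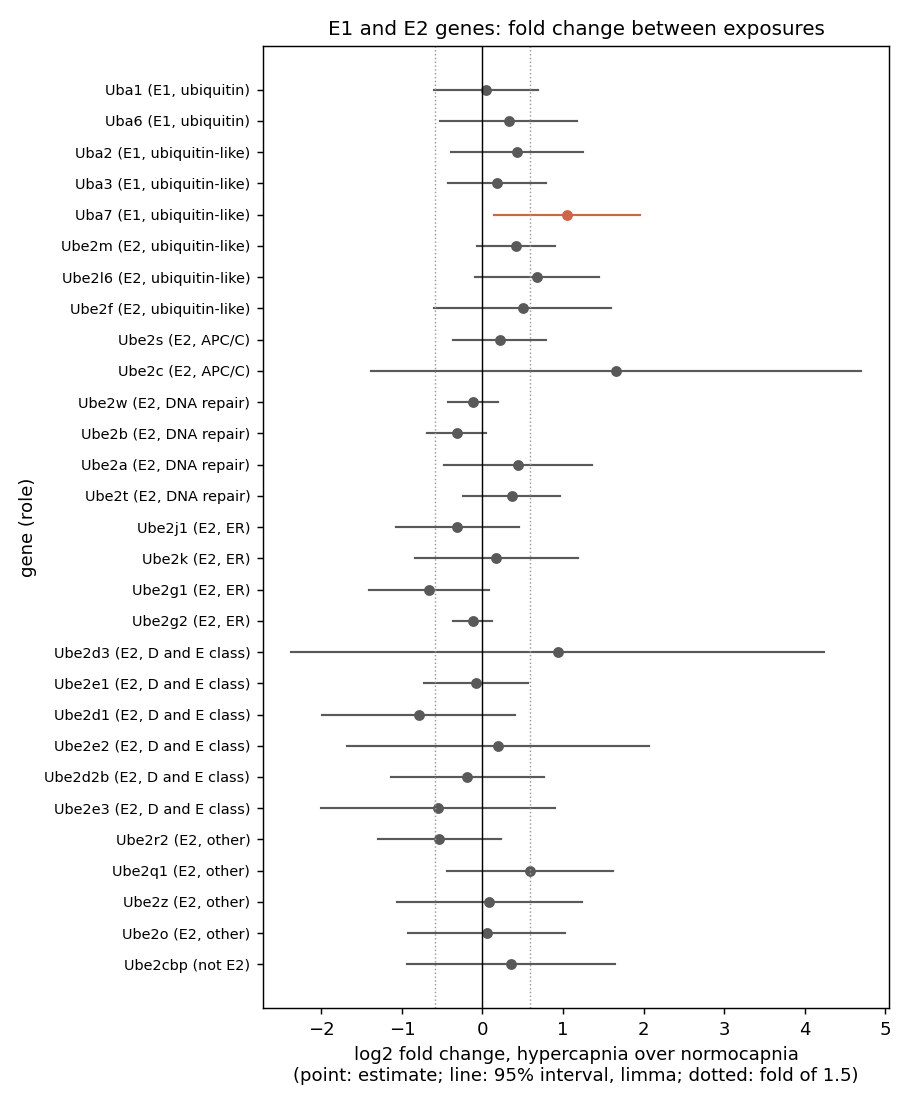
Points are log2 fold changes of hypercapnia over normocapnia and lines their 95% intervals from limma for 29 genes averaging 1 RPM or more, and dotted lines mark a fold of 1.5 either way. The line of Uba7, in orange, lies to the right of 0 from 0.14 to 1.95, and all 28 other lines cross 0.

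The E1 genes of ubiquitin itself were not called. Uba1, which encodes the enzyme that loads most E2 enzymes, was measured at 693, 413 and 640.4 RPM in normocapnia and 488, 481, 726 and 692 RPM in hypercapnia. The hypercapnia values all lie inside or just above the normocapnia range, whose lowest value is that of NC2. The difference (log2 fold change 0.04, SE 0.26, unadjusted p = 0.869 in limma) had an interval of -0.60 to 0.69, and its sign turned in 8 of 16 alternatives, among them edgeR (-0.12), DESeq2 (-0.17) and the fits without NC2 (-0.18), HC3 (-0.06) or HC4 (-0.035). Uba6, the second E1 of ubiquitin, which also activates FAT10, stood at 35.8, 39.2 and 16.6 RPM in normocapnia and 44.9, 28.4, 33.4 and 39.9 RPM in hypercapnia. NC3 was lowest and the other 6 libraries overlapped (log2 fold change 0.32, SE 0.34, unadjusted p = 0.379 in limma), and without NC3 the log2 fold change was -0.05. Uba1y, the copy of Uba1 on the Y chromosome, had 0 reads in all 7 libraries. Ubd, the gene of FAT10, was at 0 in 5 of the 7 libraries and had 1 read in each of NC2 and HC2.

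The E1 genes of SUMO and NEDD8 overlapped between the groups. Uba2, the catalytic subunit of the SUMO E1, was measured at 140.2, 100.3 and 54.4 RPM in normocapnia and 118, 112, 120.3 and 146 RPM in hypercapnia. NC2 and NC3 lay below all 4 hypercapnia libraries and NC1 inside their range (log2 fold change 0.43, SE 0.33, unadjusted p = 0.245 in limma), and the estimate was 0.73 without NC1 and 0.06 without NC3. Its partner subunit Sae1 showed 133, 50.4 and 45.2 RPM in normocapnia and 89.4, 105, 181 and 161 RPM in hypercapnia, low in NC2 and NC3 and high in HC3 and HC4, with NC1 inside the hypercapnia range (log2 fold change 0.93, SE 0.47, unadjusted p = 0.102 in limma). Sumo3, a protein that this pair activates, had a log2 fold change of 0.13 (SE 0.23). Uba3, the catalytic subunit of the NEDD8 E1, stood at 96.4, 57.2 and 50.3 RPM in normocapnia and 77.1, 64.0, 82.8 and 73.3 RPM in hypercapnia. NC1 was the highest and NC3 the lowest of all 7 libraries (log2 fold change 0.18, SE 0.24, unadjusted p = 0.489 in limma), and without NC3 the estimate was -0.0051. Without NC1 it was 0.46 (unadjusted p = 0.016, adjusted p = 0.293 in limma), under the fold limit. The groups then did not overlap, as in 31.5% of all genes at 10 RPM or more without NC1. Nae1, the partner of Uba3, had a log2 fold change of 0.02 (SE 0.42), and Nedd8 one of -0.12 (SE 0.31). Ufc1, an E2 named outside the rule that carries UFM1, had a log2 fold change of 0.46 (SE 0.26), and Ufm1 itself one of -0.10 (SE 0.11).

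The E2 enzymes of NEDD8, Ube2m and Ube2f, load it onto different cullins, the scaffolds of the largest family of ubiquitin ligases. Ube2m stood at 454, 274 and 315 RPM in normocapnia and 399, 426, 495 and 497 RPM in hypercapnia. NC1 lay inside the hypercapnia range, and the other normocapnia libraries lay below it (log2 fold change 0.41, SE 0.19, interval -0.07 to 0.90, unadjusted p = 0.0811). Without NC1 it was called higher, at 0.62, and without NC2 the estimate was 0.26. Ube2f was measured at 12.1, 22.5 and 5.78 RPM in normocapnia and 20.7, 19.3, 16.0 and 13.3 RPM in hypercapnia, with NC2 the highest and NC3 the lowest of all libraries (log2 fold change 0.50, SE 0.44, unadjusted p = 0.301 in limma). It was called higher without NC2, at 0.94, and the estimate without NC3 was 0.05.

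The ISG15 pathway held the E1 gene called higher by limma. That is 1 call among 26 members at 10 RPM or more, where 5.54% of all genes at this level were called. ISG15 is a ubiquitin-like protein that interferon induces, and Uba7 is its E1, Ube2l6 its main E2, Herc6 the mouse ligase and Usp18 the protease that removes it. Isg15 is not analysed here. Uba7 was measured at 20.9, 21.7 and 9.64 RPM in normocapnia and 41.9, 46.9, 25.4 and 29.99 RPM in hypercapnia. All 4 hypercapnia libraries lay above all 3 normocapnia libraries, with NC3 lowest and with HC3 the closest to NC2. The mean was 17.4 ± 6.75 RPM in normocapnia (SD, n = 3) and 36.1 ± 10.0 RPM in hypercapnia (SD, n = 4), a fold of 2.07 (log2 fold change 1.05, SE 0.36, interval 0.14 to 1.95, unadjusted p = 0.0303, adjusted p = 0.915 by limma with Benjamini-Hochberg). It was called in each of the 9 alternatives that did not only leave out a library, with 0.84 to 1.12, and the call was lost without HC1 (0.96), HC2 (0.91) or NC3 (0.69).

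Ube2l6, at 62.7, 58.7 and 42.5 RPM in normocapnia and 109.8, 120.4, 74.3 and 57.2 RPM in hypercapnia, was high in HC1 and HC2, while HC4 lay below both NC1 and NC2. Its difference missed the threshold (log2 fold change 0.68, SE 0.31, interval -0.10 to 1.45, unadjusted p = 0.0755), and it was called without HC4, at 0.87, while without NC3 the estimate was 0.51. Herc6 showed 1.61, 1.03 and 2.48 RPM in normocapnia and 7.11, 6.13, 3.12 and 2.84 RPM in hypercapnia, low values with all hypercapnia libraries above normocapnia (log2 fold change 1.06, SE 0.36, unadjusted p = 0.0272 in limma). Usp18 was called as well, with 6.33, 13.8 and 2.75 RPM in normocapnia, 23.1, 25.1, 22.5 and 11.2 RPM in hypercapnia and HC4 below NC2 (log2 fold change 1.47, SE 0.54, unadjusted p = 0.0365 in limma), though not with quantile normalization or without NC1, NC3, HC1, HC2 or HC3. These were the 2 genes called among 23 ligases and proteases of ubiquitin-like proteins, of which 15 had a higher and 8 a lower mean, beside the 2.57% called of all genes.

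Other interferon-induced genes were called beside them. An interferon list, which includes Usp18, was chosen with earlier results of these data known. All 12 of its measured genes had a higher mean and 8 were called higher. The shares called higher were 1.43% of all genes and 253 of the 8229 genes at 10 RPM or more. Ifit2, Irf7, Oas2 and Stat2 of the list were not called. The count of called list genes ran from 5 with quantile normalization to 9, and from 6 to 8 without 1 library. After adjustment by Benjamini-Hochberg 0 of the 12 passed 0.05 in limma and in edgeR, and 2 did in DESeq2. The summed level was 305, 449.8 and 358 RPM in normocapnia and 1265, 1563, 785 and 573 RPM in hypercapnia. Ifit1, an inhibitor of viral translation, showed the smallest p of these, at 9.95, 10.5 and 8.40 RPM in normocapnia and 63.2, 57.7, 37.5 and 23.0 RPM in hypercapnia (log2 fold change 2.03, SE 0.37, unadjusted p = 0.00206 in limma). As with Uba7 and Ube2l6, the list was highest in HC1 and HC2 and lower in HC3 and HC4. That split was shared by other lists. HC1 and HC2 both lay above HC3 and HC4 in 11 of the 12 interferon genes and in 8 of the 12 macrophage markers, and both lay below them in 10 of 10 satellite cell, 6 of 6 endothelial, 6 of 7 neutrophil, 5 of 6 myofiber and 4 of 6 fibro-adipogenic markers (1 of 6 of the last lay above) and in 9 of 13 proliferation genes. The sums in HC1 to HC4 were 8617, 8544, 5913 and 6706 RPM for macrophages without Lyz2, 807, 779, 1552 and 1319 RPM for satellite cells, 58.7, 44.7, 498 and 390.3 RPM for endothelial cells and 1324, 1276, 2459 and 3124 RPM for fibro-adipogenic cells. Their part in the values of Uba7, Ube2l6 and the interferon list was not tested.

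**Figure D3:**
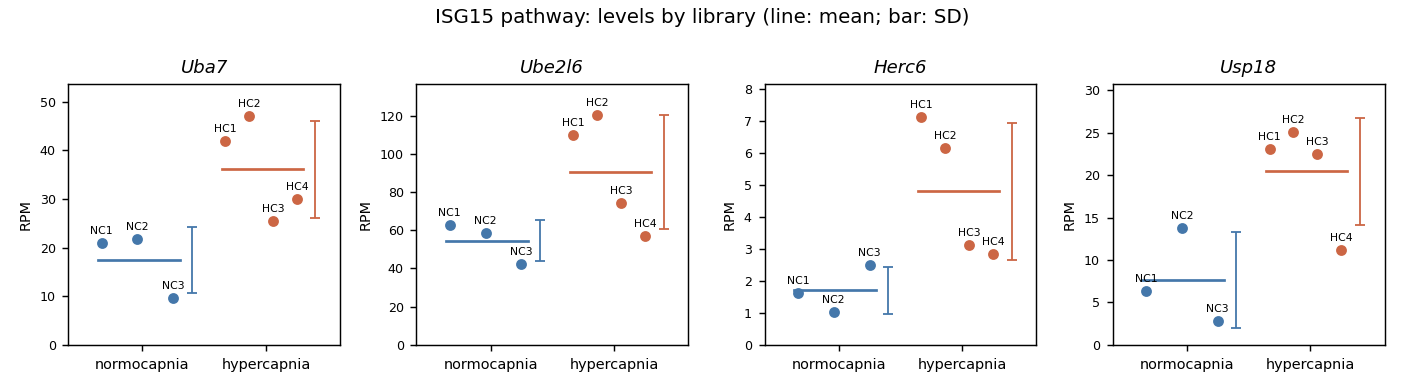
RPM of 4 ISG15 pathway genes in each library, with the group mean as a line and the SD as a bar beside it (n = 3 and 4). For Uba7 all hypercapnia points, from 25.4 RPM, lie above the highest normocapnia point at 21.7 RPM, and for Ube2l6 HC4 falls among the normocapnia points.

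The promoters of the ISG15 pair are shown because both genes are known to answer to interferon. They are the 250 bases before the RefSeq start of each gene, in the assembly GRCm38.p6, on the plus strand, at chr9:107975317-107975566 for Uba7 and chr2:84798578-84798827 for Ube2l6. Capitals mark the motif AANNGAAA, which was searched on both strands.
Uba7: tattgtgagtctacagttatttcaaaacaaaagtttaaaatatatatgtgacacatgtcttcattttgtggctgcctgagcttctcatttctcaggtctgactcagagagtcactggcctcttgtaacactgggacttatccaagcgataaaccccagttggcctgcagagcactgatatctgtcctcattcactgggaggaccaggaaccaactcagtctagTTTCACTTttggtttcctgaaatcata
Ube2l6: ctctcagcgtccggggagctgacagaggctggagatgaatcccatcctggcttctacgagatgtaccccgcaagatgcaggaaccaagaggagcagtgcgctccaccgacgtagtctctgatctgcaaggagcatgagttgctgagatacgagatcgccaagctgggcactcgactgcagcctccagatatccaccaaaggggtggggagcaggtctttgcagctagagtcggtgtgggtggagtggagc
The Uba7 promoter holds this short element once, on the reverse strand, with its first base 27 bases before the start, and the Ube2l6 stretch holds none. It is a frequent motif, found in 23.9% of the 32851 promoters of this length (300 bases, 50 of them after the start) and at 8 of the 31 E1 and E2 genes with an entry. The longer interferon response element, GAAA repeated after a gap of 2 free bases, contains it and was found in 3.44% of all promoters and at 1 of these genes, Ube2dnl1, which had no reads.

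A pair of E2 genes serves the anaphase-promoting complex (APC/C), the ligase that ends mitosis: Ube2c starts the ubiquitin chain and Ube2s lengthens it. Ube2c was among the most variable of all the members, at 131, 4.28 and 13.97 RPM in normocapnia and 45.1, 34.2, 155 and 87.1 RPM in hypercapnia, a 36.3-fold range. NC1 and HC3 were highest and NC2 and NC3 lowest, so the groups overlapped (log2 fold change 1.66, SE 1.22, unadjusted p = 0.227 in limma), and the interval of -1.39 to 4.70 was wide. The estimate rested on single libraries and on the test: it was 2.95 without NC1, where it was called, 0.63 without NC2, 0.83 in edgeR and 0.79 in DESeq2. Ube2s, at 256, 143 and 151 RPM in normocapnia and 188, 185, 235 and 216 RPM in hypercapnia, varied far less, with NC1 the highest library (log2 fold change 0.21, SE 0.23, unadjusted p = 0.398 in limma). Without NC1 its estimate was 0.48, and without NC2 0.06.

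Cdc20, which brings substrates to the APC/C in mitosis, stood at 84.5, 6.24 and 1.31 RPM in normocapnia and 34.7, 35.7, 79.7 and 67.8 RPM in hypercapnia. Mki67, a marker of cycling cells, was at 85.1, 10.9 and 0.413 RPM in normocapnia and 38.7, 33.6, 40.4 and 32.7 RPM in hypercapnia. Neither was called (2.20, SE 1.27, and 1.72, SE 1.37), and both were highest in NC1 and lowest in NC3. All 13 measured genes of a proliferation list had a higher mean in hypercapnia and 0 were called by limma, at an unadjusted p under 0.05 or after adjustment. Their sums were 1145, 118 and 125 RPM in normocapnia and 575, 526, 1071 and 792 RPM in hypercapnia, so that Ube2c was high in the libraries where these genes were high. The satellite cell markers were also highest in NC1 and HC3, at 3463 and 1552 RPM. Their part in the level of Ube2c was not tested. Among 16 genes of the APC/C list 11 were higher and 5 lower, and the subunit Anapc7 alone was called lower (1 of 16, beside 1.14% of all genes), at 51.6, 34.6 and 66.0 RPM in normocapnia and 25.6, 24.9, 39.0 and 30.4 RPM in hypercapnia (log2 fold change -0.72, SE 0.27, unadjusted p = 0.0396 in limma), with HC3 above NC2. Cdc26, a small subunit, had an unadjusted p = 0.0343 in limma with a log2 fold change of -0.27, under the fold limit.

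**Figure D4:**
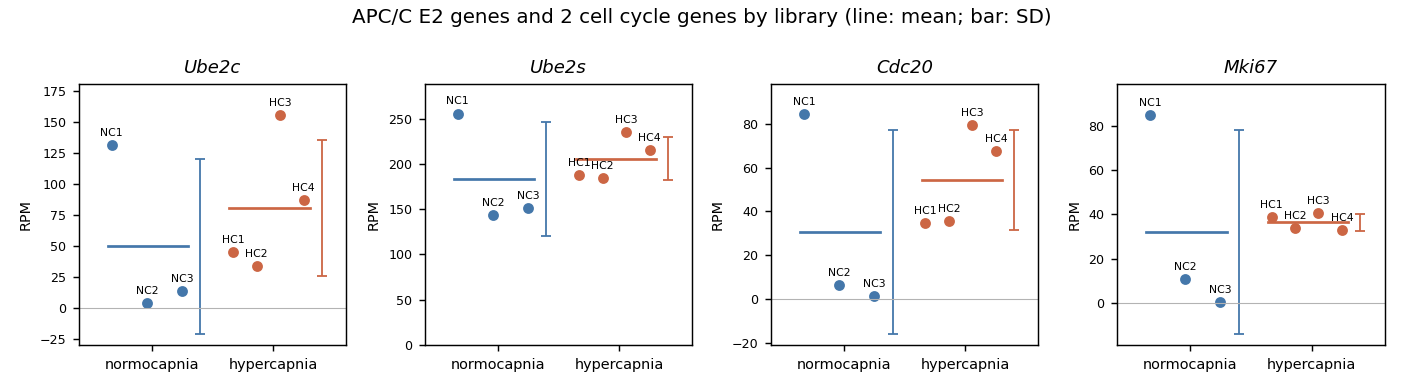
RPM of Ube2c, Ube2s, Cdc20 and Mki67 in each library, with group means as lines and SD as bars. NC1 is at 131 RPM for Ube2c while NC2 and NC3 are at 4.28 and 13.97 RPM, and the hypercapnia libraries run from 34.2 to 155 RPM.

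The promoter of Ube2c is printed because the cell cycle homology region, a short element of genes switched on before mitosis, was searched in it. The stretch is chr2:164769679-164769928 of GRCm38.p6, plus strand, from RefSeq, with TTTGAA in capitals, here on the reverse strand.
Ube2c: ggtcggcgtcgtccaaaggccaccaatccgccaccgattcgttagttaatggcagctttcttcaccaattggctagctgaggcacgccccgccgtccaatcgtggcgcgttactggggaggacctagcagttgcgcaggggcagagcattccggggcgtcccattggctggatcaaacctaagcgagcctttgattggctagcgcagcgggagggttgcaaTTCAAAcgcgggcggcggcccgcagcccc
The first base of the element lies 29 bases before the start. TTTGAA was found in 17.9% of all promoters and at 8 of the 31 members with one, which include Uba2, Uba3, Uba7, Ube2d2b, Ube2f, Ube2uos and Ube2z beside Ube2c. The related TTTAAA was found in 13.2% of all promoters and at 5 members, the E-box CACGTG in 7.15% and at 4 (Uba1, Ube2b, Ube2cbp and Ube2q1) and the GC box GGGCGG in 35.7% and at 21. Ube2s held the GC box alone among these motifs. Percentages are of promoter entries and member numbers are of genes. The 31 genes had 41 entries, 26 of them with the GC box.

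The E2 enzymes of DNA damage tolerance and repair had no called member among 4. Ube2a and Ube2b, the mouse forms of yeast Rad6, which work with the ligase Rad18 at stalled replication forks, went opposite ways in their means. Ube2a ran 17.1 to 51.5 RPM in normocapnia and 35.7 to 48.4 RPM in hypercapnia (log2 fold change 0.45, SE 0.37), with both extremes in normocapnia, and it was called higher without NC2, at 0.82, with 0.05 without NC3. Ube2b ran 57.2 to 80.9 against 48.0 to 63.1 RPM (log2 fold change -0.32, SE 0.15, unadjusted p = 0.0756 in limma), with overlap between NC3 and HC3. Without NC3 it was -0.44 (unadjusted p = 0.0275 in limma), under the fold limit, with groups that did not overlap, and without NC1 it was -0.20. Groups did not overlap without HC3 either. Ube2b had -0.39 with quantile normalization and -0.46 with median-of-ratios scaling (unadjusted p = 0.00576 and 0.0169, adjusted p = 0.706 and 0.903 in limma), under the fold limit. In edgeR and DESeq2 its unadjusted p stayed over 0.05. Ube2t, the E2 of the Fanconi anemia ligase, ran 6.11 to 10.6 against 9.04 to 15.4 RPM (0.36, SE 0.24), with 0.15 without NC2. Ube2w, which adds ubiquitin to the amino end of proteins, ran 65.9 to 71.4 against 54.2 to 76.0 RPM (-0.12, SE 0.12), a 1.40-fold range over all libraries.

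Of the 4 E2 genes grouped with protein degradation at the endoplasmic reticulum, 3 had a lower mean in hypercapnia and none was called. Ube2g1 had the second lowest log2 fold change of all members at 10 RPM or more, with 130.4, 82.7 and 172 RPM in normocapnia and 71.6, 59.1, 92.8 and 91.3 RPM in hypercapnia. The 4 hypercapnia libraries lay below NC1 and NC3, and NC2 lay inside their range (log2 fold change -0.66, SE 0.30, interval -1.40 to 0.09, unadjusted p = 0.0728). It was called lower in edgeR (-0.91), in DESeq2 (-0.97) and without NC2 (-0.94), while without NC3 the estimate was -0.42. Its relative Ube2g2, which serves the ligases gp78 and Hrd1, ran 62.2 to 75.7 against 55.3 to 68.0 RPM (-0.12, SE 0.10), with -0.04 without NC2. Ube2j1, an E2 anchored in the membrane of the endoplasmic reticulum, ran 119 to 246 against 106 to 174 RPM (-0.31, SE 0.31), with NC3 highest and an estimate of -0.02 without it. Ube2k ran 46.4 to 141 against 96.2 to 112 RPM (0.17, SE 0.40), with NC3 lowest. Without NC3 its sign turned, to -0.33 (SE 0.088, unadjusted p = 0.0172 in limma), under the fold limit, and the groups did not overlap.

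The D and E classes are E2 enzymes that work with very many ligases, among them those of muscle wasting. Of 8 such genes 3 had a higher mean, 4 a lower one and none was called. Ube2d3 had the widest range of the members, 40.3-fold, at 166, 316 and 7.85 RPM in normocapnia and 252, 194, 99.0 and 97.6 RPM in hypercapnia. NC2 was the highest library and NC3, with 114 reads, the lowest, so that the hypercapnia values all lay between them (log2 fold change 0.94, SE 1.32, interval -2.37 to 4.24). The means in RPM were nearly the same, 163 in normocapnia and 161 in hypercapnia. On whole reads the log2 fold change was 0.04 in edgeR and 0.03 in DESeq2, and without NC3 it turned to -0.63. Ube2d1, of the same class, went the other way in NC3. It was measured at 174, 89.0 and 323 RPM in normocapnia and 83.8, 73.6, 133 and 114 RPM in hypercapnia, with NC3 highest and NC2 inside the hypercapnia range (log2 fold change -0.79, SE 0.48, interval -1.99 to 0.41, unadjusted p = 0.154), the lowest log2 fold change of all members at 10 RPM or more. It was called lower in edgeR (-1.22), in DESeq2 (-1.28) and without NC2 (-1.26), while without NC3 the estimate was -0.33.

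The remaining genes of these classes gave no called difference. Ube2e1 ran 96.2 to 193 against 126 to 162 RPM (-0.08, SE 0.26). Its sign turned without NC1 (0.13) and without NC2 (0.01), and without NC3 it was -0.37 (unadjusted p = 0.0421 in limma), under the fold limit, with groups that did not overlap. Ube2e2 and Ube2e3 had few reads and a wide spread, at 1.31 to 18.1 against 5.52 to 11.4 RPM (0.19, SE 0.75) and 1.45 to 10.5 against 2.06 to 4.45 RPM (-0.56, SE 0.58). Both were lowest in NC3. Without it Ube2e2 turned to -0.65 and Ube2e3 was called lower, at -1.19, while without NC2 Ube2e3 was at -0.07. Ube2d2b, a further gene of the D class, ran 3.85 to 5.30 against 2.62 to 8.60 RPM (-0.19, SE 0.38). Its overlap came from HC4 alone, and HC1 to HC3 lay below normocapnia, at 3.21, 2.81 and 2.62 RPM. With the replicate number as a block, a fit that leaves out HC4, Ube2d2b had -0.51 (SE 0.13, unadjusted p = 0.0389 in limma), under the fold limit. Ube2dnl1 had 0 reads in all libraries and Ube2dnl2 at most 2 reads, in HC4.

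**Figure D5:**
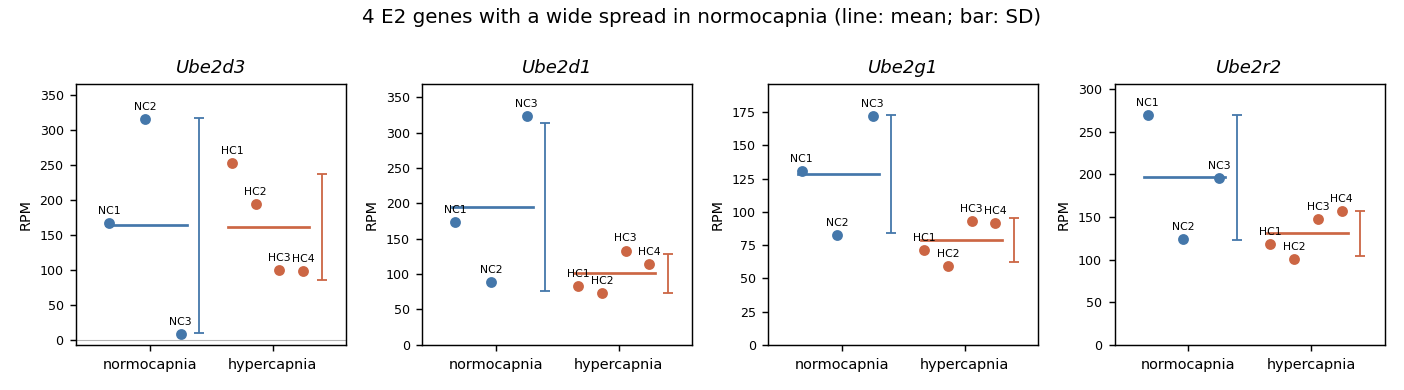
RPM of Ube2d3, Ube2d1, Ube2g1 and Ube2r2 in each library, with group means as lines and SD as bars. NC3 is the lowest point for Ube2d3 at 7.85 RPM and the highest for Ube2d1 at 323 RPM and Ube2g1 at 172 RPM, and the hypercapnia points lie closer together than those of normocapnia.

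Other E2 genes were also without a call, with 4 means higher and 2 lower among 6. Ube2r2, a relative of Cdc34 that builds chains with cullin ligases, was the third lowest in log2 fold change of the members at 10 RPM or more, at 270.1, 124 and 195 RPM in normocapnia and 118, 100.9, 147 and 157 RPM in hypercapnia. NC2 lay inside the hypercapnia range and NC1 and NC3 above it (log2 fold change -0.53, SE 0.31, unadjusted p = 0.136 in limma). It was called lower in DESeq2 (-0.75) and without NC2 (-0.83), while without NC1 the estimate was -0.27. Ube2q1 ran 50.9 to 164 against 126 to 171 RPM (0.59, SE 0.41), with NC3 lowest and an estimate of 0.12 without it. Ube2z, an E2 loaded by Uba6 alone, ran 18.7 to 67.3 against 44.0 to 48.9 RPM (0.08, SE 0.46). Without NC3 its sign turned, to -0.49 (SE 0.064, unadjusted p = 0.000941 and adjusted p = 0.255 in limma), under the fold limit, and the groups did not overlap, as in 19.4% of all genes at 10 RPM or more without NC3. Ube2o, a large enzyme that joins E2 and ligase activity, ran 14.6 to 31.4 against 15.3 to 34.0 RPM (0.05, SE 0.39), with -0.22 without NC3.

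Members near the floor of 3 reads (0.128 to 0.207 RPM) carried the remaining low p. Ube2u had 7, 4 and 4 reads in NC1 to NC3 and 0, 2, 2 and 0 reads in HC1 to HC4, that is, 0.312, 0.171 and 0.275 RPM against 0, 0.1, 0.125 and 0 RPM. The groups did not overlap, as in 4.83% of all genes, but every hypercapnia library lay under 3 reads and no fold is given (unadjusted p = 0.0105, adjusted p = 0.836 by limma with Benjamini-Hochberg). Ube2ql1 had at most 4 reads, in HC4. A set of 3 genes is named Ube2 without being an E2. Ube2d-ps, a pseudogene of the D class, had 39, 26 and 8 reads against 11, 8, 8 and 2 reads, that is, 1.74, 1.11 and 0.551 RPM against 0.471, 0.402, 0.5 and 0.135 RPM, and was called lower with groups that did not overlap (log2 fold change -0.60, SE 0.22, unadjusted p = 0.0345 in limma). The size of its fold follows the pseudocount, with -1.34 at 0.1 RPM and -0.19 at 5 RPM, and the call was lost in 10 of 15 alternatives. Among these the log2 fold change was larger in edgeR, at -1.55 with a filter (unadjusted p = 0.056 in edgeR) and without it (unadjusted p = 0.145 in edgeR). It was -0.51 to -0.65 where a hypercapnia library was left out. Whether reads of other D class genes are counted on it was not tested, and its transcript shares 0.3% of its 50-base stretches with another gene. Ube2uos, antisense to Ube2u, had 0 reads in all libraries, and Ube2cbp, a ligase that binds Ube2c, ran 0.757 to 4.10 against 1.51 to 4.75 RPM (0.36, SE 0.52), with -0.02 without NC3.

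Genes of E1, E2 and E2-like proteins whose names fall outside the rule were listed as well. Of 11 such genes measured, 5 had a higher and 6 a lower mean, and none was called. Their median log2 fold change was -0.09, beside 0.05 for the members. The highest log2 fold changes were those of Sae1 and of Atg7, the E1 of the autophagy conjugation systems, at 134, 243 and 127 RPM in normocapnia and 255, 305, 203 and 223 RPM in hypercapnia. NC2 lay inside the hypercapnia range of Atg7 and NC1 and NC3 below it (log2 fold change 0.60, SE 0.28, unadjusted p = 0.0781 in limma). The lowest was that of Birc6, a giant E2 and inhibitor of apoptosis (-0.57, SE 0.43). Cdc34, the E2 of many cullin ligases, had 0.49 (SE 0.34). Atg3 and Atg10, E2 genes of the autophagy conjugation systems, went the other way from Atg7. They had -0.30 (SE 0.15, unadjusted p = 0.0965 in limma) and -0.56 (SE 0.25, unadjusted p = 0.0694 in limma). Among ubiquitin and ubiquitin-like proteins 5 genes were measured, Nedd8, Sumo3, Ufm1, Urm1 and Ubd, and none was called.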

How the data were processed

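Hind leg muscles were digested, Pax7-GFP+ cells were sorted, and total RNA of 3 normocapnia and 4 hypercapnia samples was amplified with the Ion AmpliSeq mouse transcriptome panel and read on an Ion S5 instrument. The authors deposited a single table of RPM, read counts per amplicon brought to the same total in each library, for 23930 genes. The Transcriptome Analysis Console is named in the submitters' processing notes. The aligner was not given in the sources used here, nor was the genome build, and amplicon positions are therefore left out. Positions printed are those of RefSeq promoters.

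Whole reads were recovered from the step that 1 read makes in each library, and 100% of values came out whole within 0.05 reads. Totals ran from 14527445 to 23388710 reads. A floor of 3 reads covers counting error only, and reads without molecular identifiers are not independent molecules. Differences on log2(RPM + 1) were tested by limma 3.58.1 (R 4.3.3), with no filter, over all genes of the 7 libraries, and adjusted by Benjamini-Hochberg. A gene was called where the unadjusted p was under 0.05 and the fold change exceeded 1.5, the thresholds of the study. Fold changes are hypercapnia over normocapnia on the log2(RPM + 1) scale, which understates changes of low genes, and intervals are at 95%. The labels do not say that each library is a separate animal, so p-values measure the spread between libraries, which may be technical.

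Alternatives were pseudocounts of 0.1 and 5 RPM, genes averaging 1 RPM or more alone, quantile normalization, median-of-ratios scaling, DESeq2 1.42.0 and edgeR 4.0.16 on the whole reads (the latter by quasi-likelihood after TMM, filtered and unfiltered), the replicate number as a block, and each library left out. The scripts were tested on simulated data. The members and lists were chosen with earlier results of these data known. Values in every library are given for called members, those at p under 0.05, the E1 genes, the E2 genes of ubiquitin-like proteins and of the APC/C, and the 3 highest and 3 lowest log2 fold changes at 10 RPM or more, and the rest as ranges. A gene covered by this choice is not reported here, though counts over the members include it. Of other genes, those called and the partners of named members are given, and Lyz2, C1qa, Ifit2, Irf7, Oas2, Stat2, Atg3, Atg7, Atg10, Birc6, Cdc34, Ubd and Urm1 as well as Ifit1 were picked after their values were seen. Other called genes of the interferon list are given as a count. Motifs were searched in 300 bases around RefSeq starts (GRCm38.p6), for 31 of 37 members with an entry. AANNGAAA and the comparison of 50-base stretches of transcripts (GENCODE) were chosen after values were seen. The identity of member proteins was not analysed here.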

Additional observations from a re-analysis of the deposited data

Results flagged for a closer look

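Within the 4 hypercapnia libraries, a single library stood far from the other 3 in 3 of the 32 E1 and E2 genes examined in this way, and chance flags about 1 group in 20. Ube2ql1, a little studied E2, had 0.271 RPM in HC4 and 0 RPM in HC1 to HC3, which rests on 4 reads. Ube2z, the E2 that Uba6 loads, was at 48.9 RPM (48.858 RPM) in HC3 and at 44.0, 44.3 and 44.4 RPM in HC1, HC2 and HC4, a gap that is small beside the 18.7 to 67.3 RPM of the normocapnia libraries. Ube2d2b was at 8.60 RPM (8.599 RPM) in HC4 and at 3.21, 2.81 and 2.62 RPM in HC1 to HC3, and HC4 was also its highest value of all 7 libraries. None of these genes was called between the exposures.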

How the results depend on the processing

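Under all 16 alternatives 0 of the 37 genes had an adjusted p under 0.05. Over all genes 29 passed in DESeq2, 8 without NC1 and 1 without NC3, and 0 in the other alternatives. With a floor of 10 reads in place of 3, the number of members over it in every library was again 30. The gene called higher was Uba7 alone (1) in all settings but the replicate block (2, with Ube2l6), and without 1 library the count ran from 0 to 3, while the share of all genes called higher moved from 1.43% to 6.25% without NC1 and 2.8% without NC2 (3 members each) and to 0.982%, 0.965% and 0.903% without NC3, HC1 and HC2 (0 members each), 1.23% without HC3 (1 member) and 1.16% without HC4 (2 members). The genes called lower (1) became 0 with the filter at 1 RPM (beside 1.7% of the genes tested) or a pseudocount of 5 RPM (0.71%), 2 with a pseudocount of 0.1 RPM (Ube2d-ps and Ube2u, 1.69%), 2 in edgeR with or without a filter (Ube2d1 and Ube2g1, 3.82% and 2.68%) and 4 in DESeq2 (these with Ube2d-ps and Ube2r2, 3.28%), and ran from 0 to 3 without 1 library, beside shares of all genes called lower of 2.23% without NC2 (3 members), 1.59% without NC3 (2 members) and 0.644% to 2.07% without another library (0 members). Groups were apart in 1 to 7 of the 26 genes at 10 RPM or more without 1 library. The 7 without NC1 stand beside 31.5% of all genes at this level, the 6 without NC2 beside 25.9% and the 5 without NC3 beside 19.4%. Without 1 library the number with a higher mean (21) ran from 13 to 22, and that with a lower mean (13) from 12 to 21, with 13 and 21 without NC3. They were 16 and 18 in DESeq2 and in edgeR without a filter, 15 and 16 in edgeR with it, and 19 and 11 with the filter at 1 RPM. The median log2 fold change of all genes at 1 RPM or more was 0.16, and 0.04 and -0.01 with median-of-ratios scaling and quantile normalization.

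The log2 fold change of Uba1 turned to -0.17 in DESeq2, -0.12 and -0.10 in edgeR with and without a filter, -0.10 with median-of-ratios scaling and -0.035 with the replicate block, and ran from -0.18 to 0.19 without 1 library. Without 1 library that of Uba3 ran from -0.0051 to 0.46, of Uba6 from -0.051 to 0.54 and of Ube2d3 from -0.63 to 1.95, and the sign turned in each without NC3, as it did in Ube2cbp, Ube2e2, Ube2k, Ube2o, Ube2ql1 and Ube2z. The cause was not tested. Replicate numbers did not pair the libraries: deviations of same-numbered libraries correlated at -0.38, 0.51 and 0.03 over 8229 genes, beside 0.39 for NC1 with HC3 and with HC4 and 0.44 for NC2 with HC1, and HC4 has no partner, so the replicate block leaves it out. In that fit Uba7 had 1.12, Ube2l6 0.87 and Ube2g1 -0.74, all called, and Ube2d-ps -0.51, not called. Values under 3 reads cannot show a difference at this depth.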
